A study of Mus musculus with 6 samples.

Results

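MHC class I molecules display peptides from inside a cell to CD8+ T cells, and 10 genes of this pathway were examined in macrophages of infarcted mouse hearts. These were the rows of the count table named H2-K1, H2-D1, B2m, Tap1, Tap2, Tapbp, Psmb8, Psmb9, Psmb10 and Nlrc5, 10 of the 54532 genes listed. All 10 were among the 14522 genes that passed the filter on low counts. The genes were picked by name, with earlier results of these data known.

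The libraries came from Ly6G- CD11b+ cells, a magnetic selection for myeloid cells depleted of neutrophils, from the hearts of 12-week-old C57BL/6 mice after 7 days of coronary occlusion. In 3 ITGA5 fl/fl libraries the integrin α5 gene carries recombination sites and is intact. In 3 Myα5KO libraries the same floxed gene was recombined by Cre driven from the lysozyme M gene, which is active in the myeloid lineage as a whole, so that monocytes and granulocytes are targeted as well as macrophages. Controls were littermates without Cre, so the presence of Cre and the loss of the gene cannot be told apart in these libraries. Hearts of individual mice were digested, and p-values refer to the spread between these libraries.

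In the class I pathway the proteasome cuts cytosolic proteins into peptides, the transporter Tap1-Tap2 carries them into the endoplasmic reticulum, and tapasin (Tapbp) holds the transporter next to empty class I molecules until a peptide is bound. A class I molecule consists of a heavy chain, H2-K1 or H2-D1 in C57BL/6 mice, and the invariant chain β2-microglobulin (B2m). In cells exposed to interferon, Psmb8, Psmb9 and Psmb10 take the places of the standard catalytic subunits and form the immunoproteasome, and Nlrc5 is the transactivator that acts at class I promoters.

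Totals ranged from 15424451 to 18152357 counts in the ITGA5 fl/fl libraries and from 18232574 to 18419287 in the Myα5KO libraries. Itga5 fell from 607 ± 43.2 to 48.7 ± 1.48 CPM (counts relative to library size after TMM scaling, mean ± SD, n = 3 per group). Its log2 fold change was -3.64, with an edgeR adjusted p of 4.42e-12, and every Myα5KO library was below every ITGA5 fl/fl library. Lyz2, the gene from which Cre is expressed, was also lower in Myα5KO, with a log2 fold change of -0.92. Of all genes tested, edgeR called 1271 changed at an adjusted p of 0.05 or less, which is 8.75%. Higher genes made up 3.56% (517 genes) and lower genes 5.19% (754 genes) of those tested, whereas scaling by library size alone called 1212 higher and 518 lower. Fewer genes were called without ITGA5 fl/fl replicate 2 (723), ITGA5 fl/fl replicate 3 (616) or Myα5KO replicate 2 (819). The median log2 fold change over all genes tested was 0.01.

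Macrophage markers dominated the libraries, with a summed level of 10 genes between 11551 and 13583 CPM. The 10 granulocyte markers summed to 187 to 226 CPM in ITGA5 fl/fl, against 246 to 372 CPM in Myα5KO. Ly6g, the antigen used for depletion, averaged 0.0196 and 0.0532 CPM in the respective groups. The 12 T and NK cell markers summed to 29.7 to 31.4 CPM in ITGA5 fl/fl, against 35.3 to 39.4 CPM in Myα5KO, of which Cd4 alone gave 19.3 and 20.9 CPM on average, whereas the T cell receptor component Cd3e was at 0.141 and 0.230 CPM. Cd3d averaged 0.0447 and 0.319 CPM, whereas Cd3g (0.284 and 0.124 CPM) and Cd8a (0.349 and 0.266 CPM) were lower in Myα5KO. Cd3e, Cd3d, Cd3g and Cd8a did not pass the filter on low counts. Summed markers of dendritic cells ranged from 162 to 180 CPM and from 198 to 202 CPM, respectively. Those of B cells ranged from 521 to 639 CPM and from 576 to 896 CPM. None of the markers in these lists was at 0 in all libraries. In bulk libraries, fewer cells of a type and less RNA per cell cannot be told apart.

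Of the 10 class I genes, 4 rose in Myα5KO and none fell by the edgeR test, beside 3.56% of all genes tested that rose. The 4 were Tap1, Psmb8, Psmb10 and Nlrc5, at 1.18- to 1.24-fold. At an unadjusted p of 0.05 or less the number was 5, Psmb9 being the further gene, beside 3353 of the 14522 genes tested. In these same 4 genes every Myα5KO library lay above every ITGA5 fl/fl library, which was true of 14.9% of all genes tested. Fitted log2 fold changes were positive for 9 of the 10 genes, with a median of 0.18. The changes were small in size, since the median absolute log2 fold change of all genes called was 0.43. The abundant components of the class I molecule itself, H2-K1, H2-D1 and B2m, were not called.

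**Figure D1:**
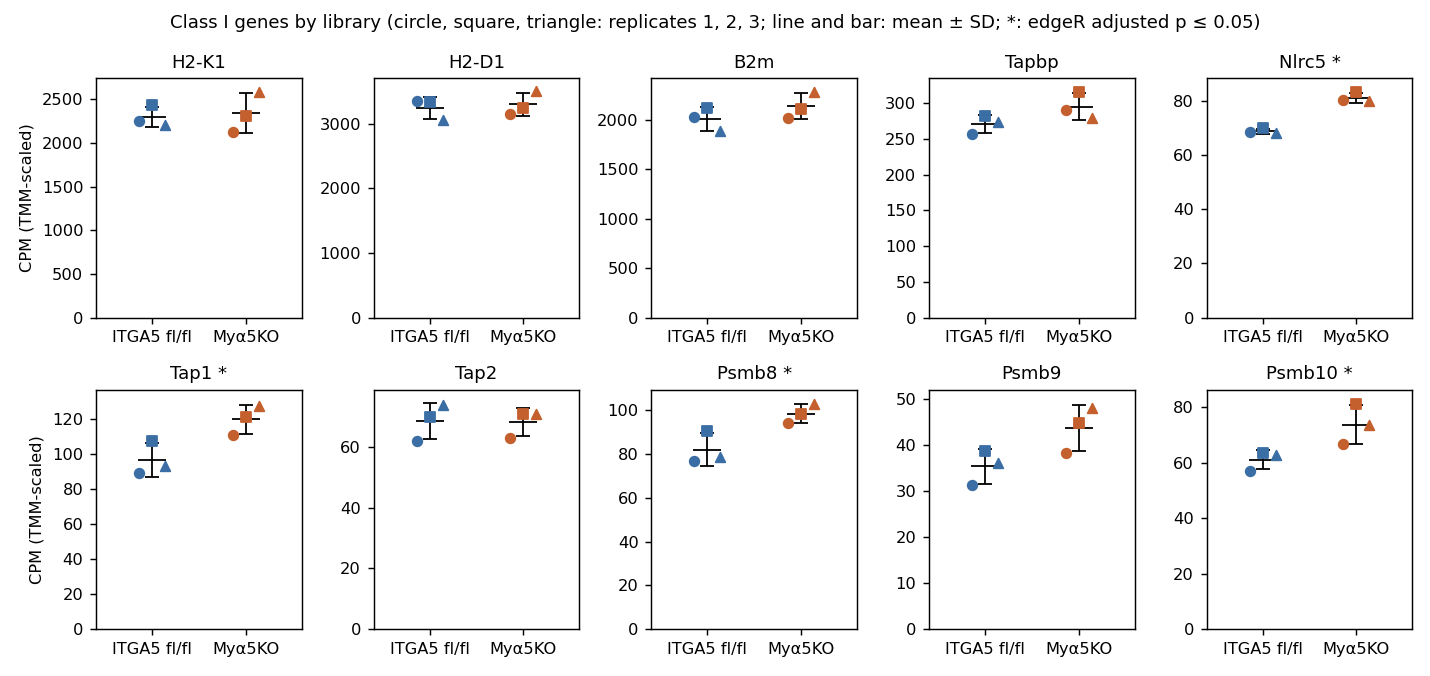
TMM-scaled CPM (vertical axes, from 0) of the 10 class I genes in each library, with group means and SD (n = 3 per group) as lines and bars. The Myα5KO points of Nlrc5, Tap1, Psmb8 and Psmb10 lie above all ITGA5 fl/fl points, whereas those of the other 6 genes overlap.

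H2-K1 (ENSMUSG00000061232, chr17:33996017-34000333, minus strand, GRCm38) and H2-D1 (ENSMUSG00000073411, chr17:35262730-35267499, plus strand) encode the classical heavy chains of this strain, and B2m (ENSMUSG00000060802, chr2:122147686-122153083, plus strand) the light chain. Their upstream sequences are shown because class I promoters carry sites for interferon-induced and NF-κB factors, and because the table of RefSeq promoters (GRCm38.p6) held them. Capitals mark, on either strand, the interferon regulatory factor core AANNGAAA, the κB consensus, the CCAAT box and the element TGACG. H2-K1 is shown for the 250 bases before its start (chr17:34000348-34000597, minus strand), and B2m for the 249 bases from 250 to 2 before its start (chr2:122147437-122147685, plus strand).
H2-K1: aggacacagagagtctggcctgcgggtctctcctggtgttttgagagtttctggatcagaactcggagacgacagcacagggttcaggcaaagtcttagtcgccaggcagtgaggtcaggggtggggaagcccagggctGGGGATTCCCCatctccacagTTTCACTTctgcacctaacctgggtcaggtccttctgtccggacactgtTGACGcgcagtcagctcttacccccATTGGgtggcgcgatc
B2m: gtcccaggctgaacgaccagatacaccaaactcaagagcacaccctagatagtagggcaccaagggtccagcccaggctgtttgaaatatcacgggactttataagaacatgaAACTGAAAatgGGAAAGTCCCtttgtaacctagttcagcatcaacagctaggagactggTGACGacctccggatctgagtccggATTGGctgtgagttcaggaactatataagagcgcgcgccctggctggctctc

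The stretch with the κB and interferon regulatory factor matches was nearly the same in both heavy chain genes, differing at 1 of 30 bases. It lay at chr17:34000429-34000458 (minus strand) for H2-K1 and at chr17:35262923-35262952 (plus strand) for H2-D1. The H2-D1 stretch is before the RefSeq start of that gene (chr17:35263094) but inside the gene span given above, whose start lies further upstream.
H2-K1: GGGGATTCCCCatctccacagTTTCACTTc
H2-D1: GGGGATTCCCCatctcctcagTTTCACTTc

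The promoter table held 8 of the 10 genes, without Tap2 and Nlrc5, each as a window of 300 bases (250 before and 50 after the start). The interferon regulatory factor core occurred in H2-K1, H2-D1 and B2m, that is in 3 of 8 genes, compared with 23.9% of all 32851 windows. The κB consensus was found in the same 3 genes, against 8.46% of all windows, and its 4 matches in each heavy chain gene overlap one another. TGACG was present in 5 genes (H2-K1, H2-D1, B2m, Tap1 and Psmb9) and in 20.8% of all windows. A CCAAT box was present in 6 genes and in 37.4% of all windows. The windows of Tap1 and Psmb9 overlap, and each of these motifs matched the same bases in both. A single TGACG and a single CCAAT match are thus counted for both genes. The gamma-activated site TTCNNNGAA matched only the Psmb8 window among these genes, against 8.30% of all windows. These motifs were picked with the sequences in view, and a match describes letters in the window, not a site in use.

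H2-K1 stood at 2249, 2430 and 2206 CPM in ITGA5 fl/fl replicates 1 to 3, and at 2128, 2305 and 2583 CPM in Myα5KO replicates 1 to 3. Both the lowest and the highest value were from Myα5KO, and the groups overlapped. The fold change was 1.02, with a 95% interval of 0.898 to 1.16 and an edgeR adjusted p of 0.883.

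H2-D1, the most abundant of the 10 transcripts by count, had 3346, 3333 and 3050 CPM in ITGA5 fl/fl, against 3151, 3239 and 3499 CPM in Myα5KO. The groups overlapped, with the highest value in Myα5KO replicate 3 and the lowest in ITGA5 fl/fl replicate 3. Its fold change was 1.02 (95% interval 0.905 to 1.14, edgeR adjusted p = 0.891). B2m was at 2025, 2122 and 1882 CPM in ITGA5 fl/fl, against 2020, 2107 and 2283 CPM in Myα5KO. These values overlapped as well, and the fold change of 1.06 had an interval of 0.946 to 1.20 (edgeR adjusted p = 0.546). The intervals of all 3 components reach to no more than a 1.20-fold increase.

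The 3 genes supplied 91.7 ± 0.502% of the counts of the 10 genes in ITGA5 fl/fl, against 90.9 ± 0.55% in Myα5KO (SD, n = 3). Together, the 10 genes took 0.799 ± 0.042% and 0.878 ± 0.0596% of all counts, respectively. The heavy chains belong to a family of related genes. Of the 50-base words in their annotated transcripts, 9.63% for H2-K1 and 12.8% for H2-D1 also occurred in transcripts of other genes. Of 150-base words, the length of one read, none of H2-K1 and 1.35% of H2-D1 were shared, the latter with H2-Q1.

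Per length, on the scale of FPKM (fragments scaled to gene length and library depth), B2m was the highest of the 10 genes in ITGA5 fl/fl at 2326, followed by H2-D1 at 1252 and H2-K1 at 876. The next level was Tapbp at 81.9 FPKM, and then Psmb10 at 35.7, Psmb8 at 29.9, Tap2 at 18.0, Tap1 at 17.6, Psmb9 at 9.63 and Nlrc5 at 8.07 FPKM. Tap2 and Tap1 were the only neighbours in this order whose ranges over the 3 libraries overlapped. In Myα5KO no neighbours overlapped, and Tap1 (21.7 FPKM) came before Tap2 (17.9 FPKM). The remaining order was the same in both groups.

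Ratios within a library compare the heavy chains with the light chain, free of library scaling. For H2-K1 over B2m, the FPKM ratio was 0.377 ± 0.0102 in ITGA5 fl/fl, against 0.360 ± 0.0130 in Myα5KO (SD, n = 3), with overlapping values (exact permutation p = 0.2). For H2-D1 over B2m it was 0.538 ± 0.0136 and 0.515 ± 0.00478. Here every Myα5KO library lay below every ITGA5 fl/fl library, with an exact p of 0.1, the smallest that 3 against 3 libraries allow, and an adjusted value of 0.175 over 7 ratios. H2-K1 over H2-D1 was 0.700 in both groups (exact p = 1).

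Tap1 (ENSMUSG00000037321, chr17:34187553-34197225) and Tap2 (ENSMUSG00000024339, chr17:34203527-34216321), both on the plus strand, encode the chains that pair to form the peptide transporter. Tap1 measured 89.2, 108 and 93.2 CPM in ITGA5 fl/fl, against 111, 121 and 128 CPM in Myα5KO. All Myα5KO values were above all ITGA5 fl/fl values. Tap1 rose 1.24-fold (95% interval 1.10 to 1.40, log2 fold change 0.31, SE 0.08, edgeR adjusted p = 0.0293). Tap2, in contrast, had 62.0, 69.8 and 73.7 CPM in ITGA5 fl/fl, against 62.9, 71.0 and 70.8 CPM in Myα5KO. The Tap2 values were interleaved, and its fold change was 0.995 with an interval of 0.885 to 1.12 (edgeR adjusted p = 0.974). The log2 fold change of Tap2 was -0.01 in this fit and 0.07 when libraries were scaled by their size alone.

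The Tap1 over Tap2 ratio addresses whether the transporter genes changed unequally within the same library. It was 0.994, 1.07 and 0.873 in ITGA5 fl/fl, against 1.22, 1.18 and 1.25 in Myα5KO. All Myα5KO ratios exceeded all ITGA5 fl/fl ratios, by 0.32 on the log2 scale of the group means, with an exact permutation p of 0.1 (adjusted 0.175 over 7 ratios).

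Tapbp (ENSMUSG00000024308, chr17:33915899-33929288, plus strand), the tapasin gene, had 258, 282 and 274 CPM in ITGA5 fl/fl. Its Myα5KO values were 290.5, 316 and 279 CPM. The lowest Myα5KO library fell just below the highest ITGA5 fl/fl library, and the 1.09-fold difference (95% interval 0.981 to 1.21) was not called (edgeR adjusted p = 0.320). Tapbp shares 3421 bases with the span of Zbtb22 on the same strand, a gene with 387 to 594 counts per library, compared with 3845 to 5907 for Tapbp.

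Psmb8, Psmb9 and Psmb10 encode the catalytic subunits of the immunoproteasome, which take the places of Psmb5, Psmb6 and Psmb7 in the standard particle. Psmb8 (ENSMUSG00000024338, chr17:34197721-34201454, plus strand) was at 76.7, 90.7 and 78.9 CPM in ITGA5 fl/fl, against 94.1, 98.4 and 103 CPM in Myα5KO. The groups were separate. Psmb8 rose 1.20-fold (95% interval 1.07 to 1.34, log2 fold change 0.26, SE 0.07, edgeR adjusted p = 0.0444).

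Psmb10 (ENSMUSG00000031897, chr8:105935735-105938444, minus strand) had 57.1, 63.6 and 62.7 CPM in ITGA5 fl/fl, against 66.9, 81.1 and 73.5 CPM in Myα5KO. All Myα5KO values were again higher, and Psmb10 rose 1.21-fold (95% interval 1.07 to 1.36, log2 fold change 0.27, SE 0.08). Its edgeR adjusted p of 0.0495 was just inside the threshold.

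Psmb9 (ENSMUSG00000096727, chr17:34181988-34187764, minus strand) measured 31.3, 38.7 and 36.1 CPM in ITGA5 fl/fl, against 38.3, 44.9 and 48.1 CPM in Myα5KO. Only the second ITGA5 fl/fl replicate reached into the Myα5KO range. The fold change of 1.24 (95% interval 1.07 to 1.43) was as large as that of Tap1 and was not called, with an edgeR adjusted p of 0.0727 and an SE of 0.10 on the log2 scale.

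Tap1 and Psmb9 lie head to head on opposite strands. Their RefSeq starts are 226 bases apart, and their annotated spans share 212 bases. How strand was treated in counting is not given in the sources used here, so that reads in the shared bases could have been assigned to either gene or to neither.

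**Figure D2:**
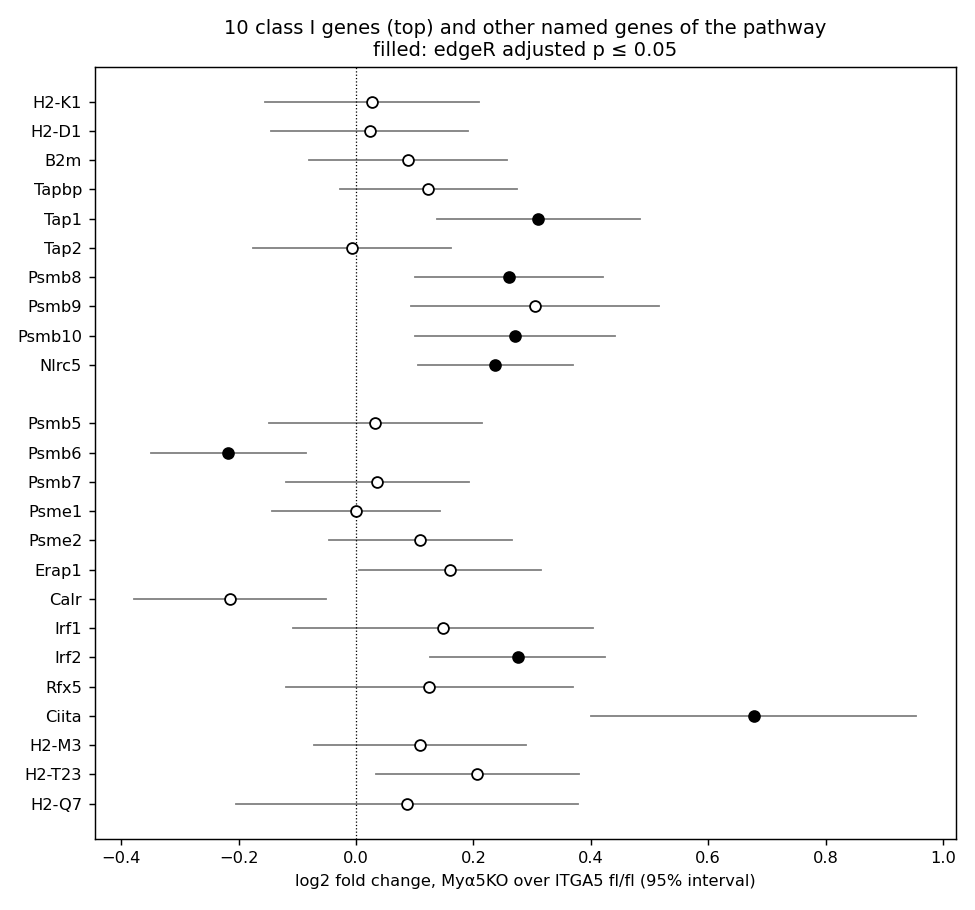
Log2 fold change of Myα5KO over ITGA5 fl/fl (horizontal axis) with 95% intervals from edgeR for the 10 class I genes and for further named genes of the pathway. Filled points have an adjusted p of 0.05 or less: Tap1, Psmb8, Psmb10 and Nlrc5 above, and Psmb6, Irf2 and Ciita below.

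No standard subunit was called higher. Psmb5, the counterpart of Psmb8, was at 48.3 ± 5.6 and 49.5 ± 2.1 CPM in the respective groups (log2 fold change 0.03). Psmb7, the counterpart of Psmb10, was at 50.6 ± 3.9 and 51.9 ± 0.38 CPM (log2 fold change 0.04). Psmb6, the counterpart of Psmb9, fell from 151 ± 4.6 to 129 ± 3.3 CPM (log2 fold change -0.22, edgeR adjusted p = 0.0426). Of 19 genes of the proteasome core, its activators and its assembly, Psmb6 was the only one called, beside 8.75% of all genes, and the median log2 fold change of the list was 0.02. Leaving out any library other than Myα5KO replicate 3 ended this call, and limma on log2(FPKM + 1) gave none, with 1 at an unadjusted p of 0.05 or less. Of all 11495 genes that limma tested, 2712 were at such a p. The activator subunits Psme1 and Psme2, which open the particle and are interferon-induced, had log2 fold changes of 0.00 and 0.11 and were not called.

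Ratios within a library compare each immunoproteasome subunit with the subunit it replaces. Psmb9 over Psmb6 was 0.104, 0.136 and 0.121 in ITGA5 fl/fl, against 0.156, 0.176 and 0.187 in Myα5KO, so that all 3 Myα5KO libraries were higher. Psmb8 over Psmb5 was 0.590, 0.619 and 0.481 in ITGA5 fl/fl, against 0.632, 0.624 and 0.709 in Myα5KO. These groups were separate too, although by a narrow margin, and the log2 difference of 0.22 was 0.11 without ITGA5 fl/fl replicate 3. For both ratios the exact permutation p was 0.1 (adjusted 0.175 over 7 ratios). Psmb10 over Psmb7 averaged 2.43 ± 0.251 and 2.85 ± 0.259 with overlapping values (SD, n = 3, exact p = 0.2). Per length, the transcript of Psmb10 was thus above that of its counterpart in every library, whereas those of Psmb8 and Psmb9 were below theirs. By CPM, which is not divided by length, Psmb8 was instead above Psmb5 in every library. The averages were 82.1 and 48.3 CPM in ITGA5 fl/fl, and 98.4 and 49.5 CPM in Myα5KO.

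**Figure D3:**
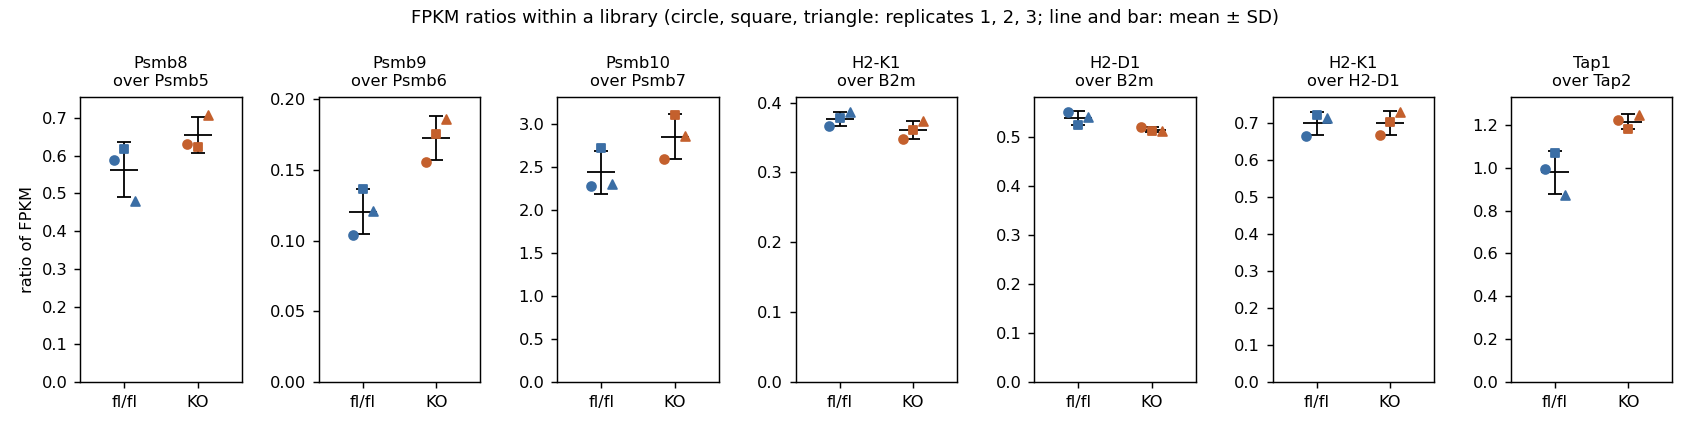
Ratios of FPKM between gene pairs within each library (vertical axes, from 0), with group means and SD (n = 3 per group). The Myα5KO points are all higher for Psmb8 over Psmb5, Psmb9 over Psmb6 and Tap1 over Tap2, all lower for H2-D1 over B2m, and overlap for the other 3 ratios.

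Nlrc5 (ENSMUSG00000074151, chr8:94434356-94527272, plus strand), the class I transactivator, had 68.5, 70.0 and 68.2 CPM in ITGA5 fl/fl, against 80.3, 83.4 and 79.9 CPM in Myα5KO. The spread within groups was small and the groups were separate. Nlrc5 rose 1.18-fold (95% interval 1.08 to 1.29, log2 fold change 0.24, SE 0.06, edgeR adjusted p = 0.0291). Its homologue Ciita, the transactivator of class II genes, rose from 23.5 ± 5.1 to 37.6 ± 3.8 CPM (log2 fold change 0.68, edgeR adjusted p = 0.00617).

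The calls depended on single libraries. With one library left out at a time, the number of class I genes called ranged from 0 to 4. It was 0 without ITGA5 fl/fl replicate 1, without ITGA5 fl/fl replicate 3 or without Myα5KO replicate 2, and 1, 2 and 4 without Myα5KO replicate 3, ITGA5 fl/fl replicate 2 and Myα5KO replicate 1. DESeq2 called 3, and limma on log2(FPKM + 1) called none, with 5 at an unadjusted p of 0.05 or less, beside 2712 of all 11495 genes that limma tested. Over the 14 alternatives, Tap1 was called in 8, Nlrc5 in 7, Psmb8 in 6, and Psmb9 and Psmb10 in 4 each, whereas H2-K1, H2-D1, B2m, Tap2 and Tapbp were called in none. The fitted log2 fold change of Tap1 lay between 0.26 and 0.40, that of Nlrc5 between 0.21 and 0.32, that of Psmb8 between 0.21 and 0.34, that of Psmb9 between 0.23 and 0.39 and that of Psmb10 between 0.20 and 0.35 across them.

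**Figure D4:**
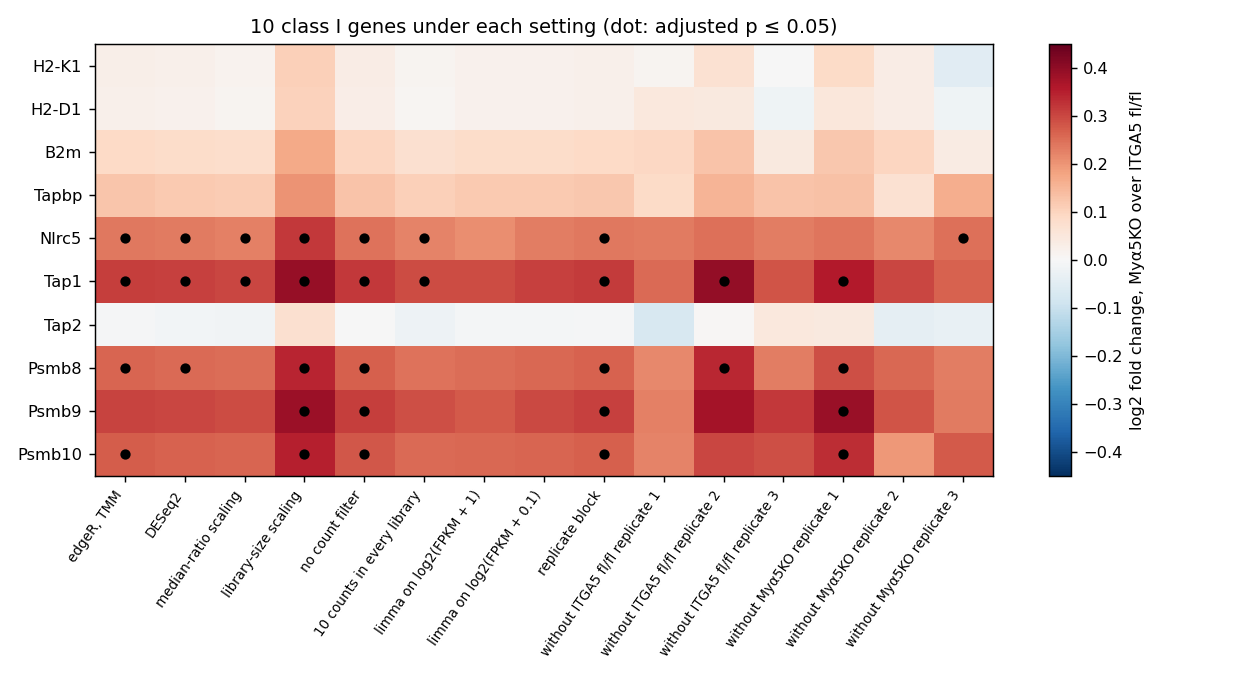
Log2 fold change of Myα5KO over ITGA5 fl/fl (colour) of the 10 class I genes under the edgeR fit and 14 alternatives (columns). Dots mark an adjusted p of 0.05 or less, which Tap1 reached in 8 and Nlrc5 in 7 of the alternatives, and H2-K1, H2-D1, B2m, Tap2 and Tapbp in none.

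The libraries differed also within groups. ITGA5 fl/fl replicate 1 had the lowest value of 6 of the 10 genes and ITGA5 fl/fl replicate 3 that of 3. Myα5KO replicate 3 had the highest value of 6 genes and Myα5KO replicate 2 that of 3.

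Other class I heavy chains include the Qa and Tla families and molecules such as Mr1 and Cd1d1 that present ligands other than peptides. Of 23 genes listed, 20 were in the count table and 14 were tested. H2-T24 rose from 23.2 ± 1.2 to 30.8 ± 3.4 CPM (log2 fold change 0.41, edgeR adjusted p = 0.0188), and it was the only one of the 14 called, beside 8.75% of all genes tested. Without ITGA5 fl/fl replicate 1, ITGA5 fl/fl replicate 3, Myα5KO replicate 1 or Myα5KO replicate 2, edgeR called 0 genes of this list, with 1, 1, 4 and 3 at an unadjusted p of 0.05 or less. In these fits 2757 to 3229 of all genes tested (14837 to 14903) were at such a p. H2-T23, the Qa-1 gene whose product is a ligand of inhibitory NK receptors, was at 225 ± 17 and 260 ± 23 CPM (log2 fold change 0.21, edgeR adjusted p = 0.136). H2-Q7 and H2-M3 had log2 fold changes of 0.09 and 0.11 and were not called. The median of the list was 0.09, and counts within the Qa family are uncertain because its genes are near-identical.

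Genes of peptide trimming and of folding in the endoplasmic reticulum gave 1 call, a decrease, among 13 tested, beside 8.75% of all genes tested that were called. Hspa5, the chaperone BiP, fell from 3005 ± 139 to 1944 ± 258 CPM (log2 fold change -0.63, edgeR adjusted p = 0.00141). Calreticulin (Calr), which is part of the peptide-loading complex, was at 971 ± 36 and 837 ± 67 CPM (log2 fold change -0.21, edgeR adjusted p = 0.104). Erap1, the aminopeptidase that trims class I peptides, was at 69.6 ± 3.0 and 77.7 ± 5.9 CPM (edgeR adjusted p = 0.201, log2 fold change 0.16). The median over the list was -0.04, and without Myα5KO replicate 3 there were 2 calls, 1 higher and 1 lower. Library-size scaling gave 2 higher and 1 lower.

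Of 24 regulators of class I genes and members of interferon signaling, 5 rose and 2 fell, beside 3.56% and 5.19% of all genes. Stat2, which encodes a factor of type I interferon signaling, rose from 61.2 ± 3.2 to 75.0 ± 4.1 CPM (log2 fold change 0.29, edgeR adjusted p = 0.0194). Irf2, Irf9 and the kinase gene Tyk2 rose with log2 fold changes of 0.28, 0.26 and 0.23. Nfkb1, which encodes an NF-κB subunit, fell from 687 ± 26 to 427 ± 49 CPM (log2 fold change -0.69, edgeR adjusted p = 0.000359). Jak2 fell with a log2 fold change of -0.64. Irf1, an activator of Psmb9, Tap1 and B2m, was at 131 ± 7.5 and 146 ± 31 CPM (log2 fold change 0.15, edgeR adjusted p = 0.499). The interferon receptor genes Ifngr1, Ifngr2, Ifnar1 and Ifnar2 were not called, nor was Rfx5, whose product binds class I and class II promoters. Ifnar1 and Ifnar2 had log2 fold changes of -0.17 and -0.18 (edgeR adjusted p of 0.171 and 0.101). Those of Ifngr1 and Ifngr2 were 0.06 and -0.03 (edgeR adjusted p of 0.622 and 0.841). There were 2 lower calls in every alternative, whereas the number of higher calls fell from 5 to 1 without ITGA5 fl/fl replicate 1 or Myα5KO replicate 2, to 2 without ITGA5 fl/fl replicate 2 or ITGA5 fl/fl replicate 3, and to 0 with limma on log2(FPKM + 1), with 10 genes of the list at an unadjusted p of 0.05 or less. Of all 11495 genes that limma tested, 2712 were at such a p. The Stat2 call was lost without ITGA5 fl/fl replicate 1, ITGA5 fl/fl replicate 3 or Myα5KO replicate 2 (edgeR adjusted p of 0.0692, 0.0709 and 0.106).

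Among 30 interferon-stimulated genes, 21 rose and 1 fell, beside 3.56% and 5.19% of all genes tested, with a median log2 fold change of 0.45. This list was chosen knowing that such genes were higher in these data, so its count is not independent evidence of its direction. Oasl2, of the oligoadenylate synthetase-like family, rose from 67.1 ± 11.5 to 102 ± 7.72 CPM (log2 fold change 0.60), and Ifi44 rose from 5.01 ± 0.659 to 8.29 ± 1.10 CPM (0.72). The Ifi44 call was lost without ITGA5 fl/fl replicate 3 or Myα5KO replicate 2 (edgeR adjusted p of 0.0597 and 0.0538). Cxcl9, a chemokine that attracts T cells, had 9.18, 12.0 and 9.33 CPM in ITGA5 fl/fl, against 13.4, 31.6 and 15.4 CPM in Myα5KO. Its log2 fold change of 0.98 leaned on Myα5KO replicate 2, without which it was 0.50 (edgeR adjusted p = 0.0643), and the call was also lost without ITGA5 fl/fl replicate 1 or ITGA5 fl/fl replicate 3 (edgeR adjusted p of 0.0856 and 0.118). The exception was Oasl1, which fell with a log2 fold change of -0.61. The 4 class I genes that rose had smaller changes than any of these 21, whose lowest was 0.37 for Gbp3. This does not hold for the list as a whole, since the call itself favours larger changes. Its 8 genes not called had log2 fold changes from -0.02 (Isg15) to 0.45 (Ifit1). Among them, Rsad2, Ifih1, Bst2 and Gbp5, at 0.11, 0.21, 0.22 and 0.23, were below those 4 class I genes. The 22 calls became 14 without ITGA5 fl/fl replicate 1 and 11 without Myα5KO replicate 2, and limma on log2(FPKM + 1) gave 6.

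MHC class II genes, which serve presentation to CD4+ T cells, gave 3 calls among 12, all higher, beside 3.56% of all genes tested. These were Ciita, H2-DMb2 (log2 fold change 0.53) and H2-Ob (0.46), of which the latter pair lost its call without ITGA5 fl/fl replicate 3 (edgeR adjusted p of 0.0525 and 0.0519). The class II chains themselves, H2-Aa, H2-Ab1 and H2-Eb1, had log2 fold changes of 0.14, 0.11 and 0.14 and were not called. In both classes, the transactivator gene was called and the abundant chain genes were not, and whether their changes differ was not tested.

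**Figure D5:**
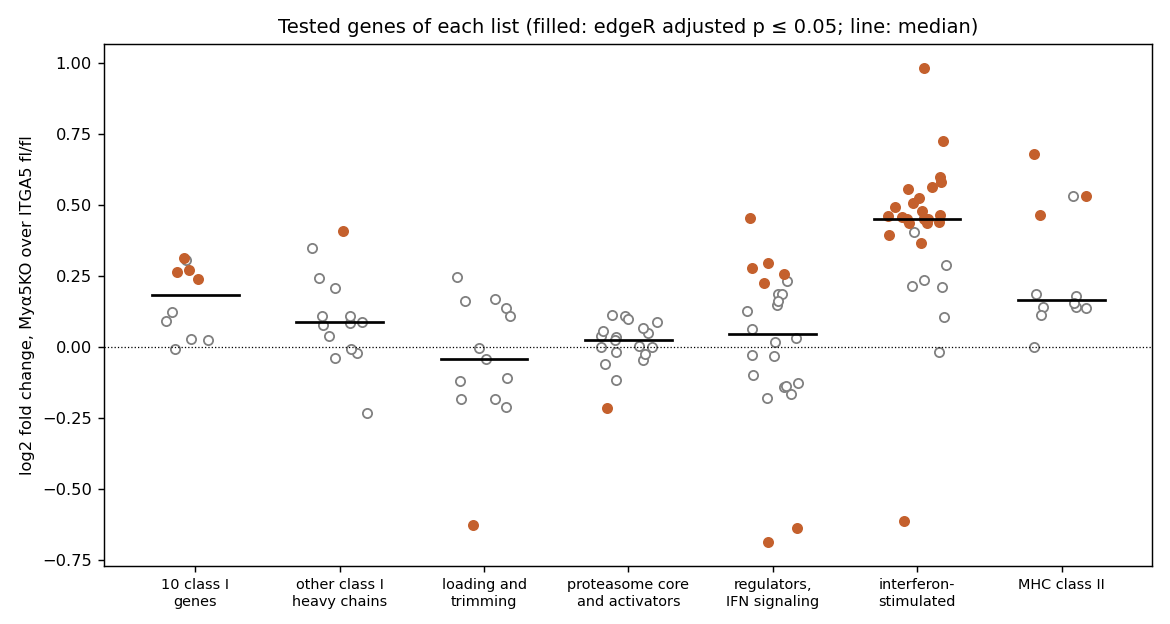
Log2 fold change of Myα5KO over ITGA5 fl/fl (vertical axis) of every tested gene in each list. Filled points are called by edgeR and lines are medians, which were 0.18 for the 10 class I genes, 0.02 for the proteasome core and 0.45 for interferon-stimulated genes.

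Summed markers of other cells also separated the groups. Summed CPM was higher in every Myα5KO library for T and NK cell, dendritic cell and granulocyte markers, each with an exact permutation p of 0.1, the smallest possible, and 0.133 after adjustment over 8 lists. Of the genes tested, 1 of 6 T and NK cell, 2 of 10 B cell, 3 of 10 dendritic cell and 5 of 8 granulocyte markers rose, beside 3.56% of all genes tested, and none in these lists was called lower. Called or not, log2 fold changes were positive for 6, 10, 5 and 7 of these tested markers, respectively, with minima of -0.43 for dendritic cells and -0.65 for granulocytes. Summed B cell markers overlapped between groups, with Ighm giving 442 and 488 CPM of the averages of 585 and 693 CPM. Taken singly, 6 of the 10 B cell markers were higher in every Myα5KO library, beside 14.9% of all genes tested. Csf3r gave 155 and 169 CPM of the granulocyte averages of 203 and 303 CPM. Endothelial markers overlapped as well, whereas fibroblast markers (1768 ± 146 and 1430 ± 184 CPM) and cardiomyocyte markers (25.0 ± 0.974 and 17.0 ± 2.18 CPM) were lower in every Myα5KO library (exact p = 0.1 for each). Summed macrophage markers averaged 13431 ± 139 CPM in ITGA5 fl/fl, against 11905 ± 420 CPM in Myα5KO, mostly through Cd14, which fell from 4755 ± 159.9 to 3489 ± 239 CPM. Fcgr1, an interferon-responsive macrophage gene, rose with a log2 fold change of 0.27. Their part in the changes of class I genes was not tested.

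Finally, the genes whose pattern over the 6 libraries was nearest to the mean pattern of the 10 class I genes were named. Among 11004 candidates these were Cbx8, Oas1c, Dhx36, Slamf8 and Nadsyn1, with distances between 0.531 and 0.610 in units of standardized log2 CPM. Oas1c is of the oligoadenylate synthetase family. Of these 5, Slamf8 was called higher (edgeR adjusted p = 0.0426), by 0.56 on the log2 scale, beside 3.56% of all genes tested. The 5 were picked for following the class I genes in these same libraries, so the call is not independent evidence.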

How the data were processed

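RNA of magnetically selected cells was sequenced at the study's provider. The authors filtered reads for adapters, unknown bases and quality, mapped them to GRCm38.p6 (mm10) by TopHat2 2.0.9 and obtained counts by HTSeq 0.6.1, and the submitters' processing notes also name Cufflinks 2.1.1. The deposited counts are whole reads per gene without normalization. The deposited FPKM values are counts over gene length and over a library constant that was found proportional to the DESeq2 size factor. The treatment of strand and of multi-mapped reads is not given in the sources used here.

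Groups were taken from sample titles. In R 4.3.3, edgeR 4.0.16 was used for a quasi-likelihood test of the counts (TMM factors, default filter with minimum count 10 and minimum total count 15, group as the only term), and p-values were adjusted by the Benjamini-Hochberg method over 14522 genes. An adjusted p of 0.05 or less is called, and the words rose and fell are used of called genes. Totals of 15424451 or more counts per library left 467 or more counts for each class I gene. FPKM ratios and summed markers were compared by exact two-sided permutation tests, whose smallest p is 0.1. Replicates differed beyond sampling noise, so each counts as 1 sample. Alternatives were DESeq2 1.42.0, limma 3.58.1 with trend on log2(FPKM + 1) and log2(FPKM + 0.1) (FPKM of 1 or more in 3 libraries), other scalings and filters, the replicate number as a block and each library left out. The edgeR script was tested on simulated data.

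The members, lists and tests were chosen with earlier results of these data known, including that interferon-stimulated genes were higher. The genes named were the 10 members, Itga5, Lyz2, up to 4 called genes with the largest change and a mean of at least 50 counts in each list, further genes with a known place in the pathway, and the 5 nearest in pattern (Euclidean distance of standardized log2 CPM). Other genes named were chosen after their values were seen. A result of the regulator list is not reported here. Motifs were searched on both strands in RefSeq promoters (GRCm38.p6).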

Additional observations from a re-analysis of the deposited data

How the results depend on the processing

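The number of class I genes called, 4 with edgeR, was 3 with DESeq2, 2 with median-ratio scaling, 2 with at least 10 counts in every library, 5 with library-size scaling, 5 without a count filter, and 0 with limma on log2(FPKM + 1) and on log2(FPKM + 0.1), each with 5 at an unadjusted p of 0.05 or less. Of the 11495 genes that limma tested, 2712 and 2705 were at such a p in the respective settings. Leaving out a library gave 0 to 4 class I genes called. For the other lists, both limma settings gave 1 call of class II genes, 2 of regulators, 6 of interferon-stimulated genes, 0 of other heavy chains and 0 of the proteasome list, and over all genes 472 and 448 with the larger and the smaller pseudocount. Library-size scaling gave 2 calls of other heavy chains, 3 of peptide loading and 0 of the proteasome list, and DESeq2 gave 2 of peptide loading. Without a count filter the proteasome list gave 0. Each 0 for the proteasome list stood beside 1 gene at an unadjusted p of 0.05 or less, apart from 5 with library-size scaling and 2 without ITGA5 fl/fl replicate 3. In the settings with such a 0, 2705 to 4185 of all genes tested (11495 to 27687) were at such a p. Without single libraries, calls ranged from 616 to 1091 over all genes, 3 to 7 for regulators, 11 to 21 for interferon-stimulated genes, 0 to 1 for other heavy chains, 1 to 2 for peptide loading and 0 to 1 for the proteasome list. Library-size scaling moved the log2 ratio of summed macrophage markers to -0.0934 and that of dendritic cell markers to 0.29. The cause of these shifts was not tested, apart from the fewer samples when a library is left out.

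The sign of the log2 fold change depended on the setting for 3 genes near 0. Tap2 was at 0.0736 with library-size scaling, and at 0.00589, 0.0482 and 0.0433 without ITGA5 fl/fl replicate 2, ITGA5 fl/fl replicate 3 and Myα5KO replicate 1, within a range of -0.0735 to 0.0482 over the libraries left out. H2-K1 ranged from -0.0499 to 0.0863 and H2-D1 from -0.0210 to 0.0506 in the same way. Without ITGA5 fl/fl replicate 3 they were at -0.0013 and -0.0195, and without Myα5KO replicate 3 at -0.0499 and -0.0210. The other 7 genes kept their direction in all 14 alternatives. Ratios within a library are the same by construction with TMM-scaled counts per kilobase. With a library left out, 6 of the 7 ratios kept their direction, and the log2 difference of H2-K1 over H2-D1, 0.000364 with all libraries, ranged from -0.0369 to 0.0345.

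By replicate number, deviations from the group mean correlated at 0.051, -0.058 and 0.043 between same-numbered libraries of the groups. Differently numbered libraries gave -0.101 to 0.0634. Deviations from a group mean are not independent, so these values cannot show whether samples were paired. With the number as a replicate block, edgeR called 5 class I genes, 0 of the proteasome list and 1181 genes in all. Adjusted p-values of Psmb8, Psmb10 and Psmb9, at 0.0444, 0.0495 and 0.0727, lie close to the threshold.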
